A study of Mus musculus with 8 samples.

Results

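Interferon-stimulated genes are the genes that cells switch on when interferon binds its receptors, and 42 of them were followed in the lungs of ventilated and non-ventilated mice. They were chosen by gene symbol from a fixed list, out of 16593 genes with a named probe on the array. The list holds 5 GTPases that mainly answer interferon-gamma and 37 other genes, called type I members here, and these are described apart. The type I label is not exclusive, since Irf1 among them is induced by both interferons. Of the 42, 31 were measured, which means that 3 or more of the 8 arrays detected at least 1 of its probes (detection p under 0.05). The other 11 comprised 9 genes whose probes did not reach that mark and 2, Ifi44 and Dtx3l, for which no probe was named.

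All lungs came from mice of the inbred strain NOD/shi, aged 6 to 12 weeks in both groups, and whole-lung RNA was measured. The 3 control mice were not ventilated and the 5 others were, in a study of ventilator-induced lung injury. Each lung is labelled as a sample of its own and was read on 1 bead array, and no genetic alteration beyond the strain is labelled. The sources used here do not give the ventilator settings, the time on the ventilator or how the control mice were handled.

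Type I interferons signal through a receptor bound by the kinases Tyk2 and Jak1. The factor activated downstream, which holds Stat2 and Irf9 among its subunits, binds the interferon-stimulated response element in the promoters of its targets. Interferon-gamma uses another receptor, with Jak1 and Jak2, and acts through a different promoter element. In the lung this programme is best known from defence against viruses and intracellular bacteria, and many of its genes are also transcribed at a basal level without infection.

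The promoters of 3 members are shown because the element at issue can be read in them. Gbp2 passed the test, Ifit3 lay lower in ventilated lungs without overlap between groups, and Rsad2 has the element but did not lie lower. Each is 300 bases of the mouse genome from RefSeq (build GRCm38.p6), 5′ to 3′ on the gene's own strand. Each ends 50 bases past the start of the gene, with matches to the response element in capitals. The intervals are chr3:142620413-142620712 (plus strand) for Gbp2, chr19:34583279-34583578 (plus strand) for Ifit3 and chr12:26456403-26456702 (minus strand) for Rsad2.
Gbp2: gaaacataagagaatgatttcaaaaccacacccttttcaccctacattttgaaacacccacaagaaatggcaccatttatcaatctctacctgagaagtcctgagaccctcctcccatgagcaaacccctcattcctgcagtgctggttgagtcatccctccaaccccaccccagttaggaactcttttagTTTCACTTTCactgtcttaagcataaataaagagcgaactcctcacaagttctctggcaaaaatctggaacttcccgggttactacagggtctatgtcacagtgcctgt
Ifit3: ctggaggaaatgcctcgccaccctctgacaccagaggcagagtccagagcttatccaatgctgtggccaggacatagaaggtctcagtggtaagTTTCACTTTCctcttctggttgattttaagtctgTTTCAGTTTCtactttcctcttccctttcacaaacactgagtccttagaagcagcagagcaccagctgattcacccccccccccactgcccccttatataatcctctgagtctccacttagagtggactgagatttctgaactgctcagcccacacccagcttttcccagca
Rsad2: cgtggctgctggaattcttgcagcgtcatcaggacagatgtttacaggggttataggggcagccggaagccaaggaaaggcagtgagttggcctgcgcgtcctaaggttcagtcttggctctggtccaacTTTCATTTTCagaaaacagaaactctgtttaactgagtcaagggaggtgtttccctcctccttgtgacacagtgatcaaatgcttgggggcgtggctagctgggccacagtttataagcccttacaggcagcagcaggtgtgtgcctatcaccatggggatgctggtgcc
The letters searched were GAAA, any 2 bases and GAAA again, on both strands, with overlapping matches counted, and every match in these promoters lies on the strand opposite to the gene. The match of Gbp2 begins 59 bases before the gene's start, those of Ifit3 begin 156 and 122 bases before it, and that of Rsad2 begins 120 bases before it. Of the 42 members, 32 were matched to a promoter and 16 of these held the element, 12 of 28 type I members and 4 of 4 GTPases. Among 27025 genes with a promoter in the table the share was 3.99%. Isg15, with 3 overlapping matches, had the most of any member. The element of interferon-gamma, searched as TTCNNNGAA, which reads alike on both strands, stood in promoters of 9 of the 32 members and of 9.55% of all genes. This element stood in promoters of 8 of 28 type I members and 1 of 4 GTPases, and not in that of Gbp2. A match is a description of these letters and not a measured binding site.

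Brightness varied between arrays of the same group, which touches the dimmer members. Control 2 was the dimmest array, with a mean probe intensity of 54.3 against 332 and 253 on the other controls and 87.4 to 321 on the ventilated arrays. Of the 31 measured members, 18 were detected on control 2, 23 on ventilated 4 and 27 to 31 on each other array. Control 2 lay below all 7 other arrays for 7 members and above all of them for 7 more. Log2 fold changes of members that moved by over 1.5 times or turned sign without control 2 are therefore also given without it. The number of arrays limits the precision of every value. The p-values rest on the spread between these 8 arrays, with each gene's variance drawn by limma toward that of all features. Each lung was read on 1 array, so variation between lungs and between arrays cannot be told apart.

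No measured interferon-stimulated gene passed the test as higher in ventilated lungs, and 1 passed as lower. A gene that did not pass is not thereby shown to be unchanged, and 13 members had a log2 fold change above 0. In limma's test across all 10200 features with Benjamini-Hochberg adjustment, 0 of 31 members rose at an adjusted p under 0.05, beside 1.26% of all features. Gbp2, a GTPase induced by interferon-gamma, was the 1 member that fell, where 0.735% of all features fell. At an unadjusted p under 0.05 no member was higher and 4 were lower, Gbp2, Usp18, Ifit3 and Parp14, beside 8.69% and 7.55% of all features.

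The groups were apart for 4 genes, which lay lower in all 5 ventilated lungs than in all 3 controls: Gbp2, Ifit3, Usp18 and Irf9. They are 12.9% of the measured members, against 6.45% of all features. No member lay higher in this way, against 6.71% of all features. The median log2 fold change, ventilated minus control, was −0.16 over the 27 measured type I members and −0.25 over the 4 measured GTPases, and 0.01 over all features. Of the 31 members, 18 had a log2 fold change below 0, or 58.1%, against 48.8% of all features. Gbp2 alone changed by at least 1 on the log2 scale, and 21 members stood within 0.5 of no change. The 95% interval of the difference stayed below a 2-fold rise for 25 members, above a 2-fold fall for 19 and within both limits for 14. It reached past a 2-fold rise for Rsad2, Cmpk2, Bst2, Ifi35, Tap1 and Irgm1, so a rise of that size lies within the error for these 6.

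**Figure D1:**
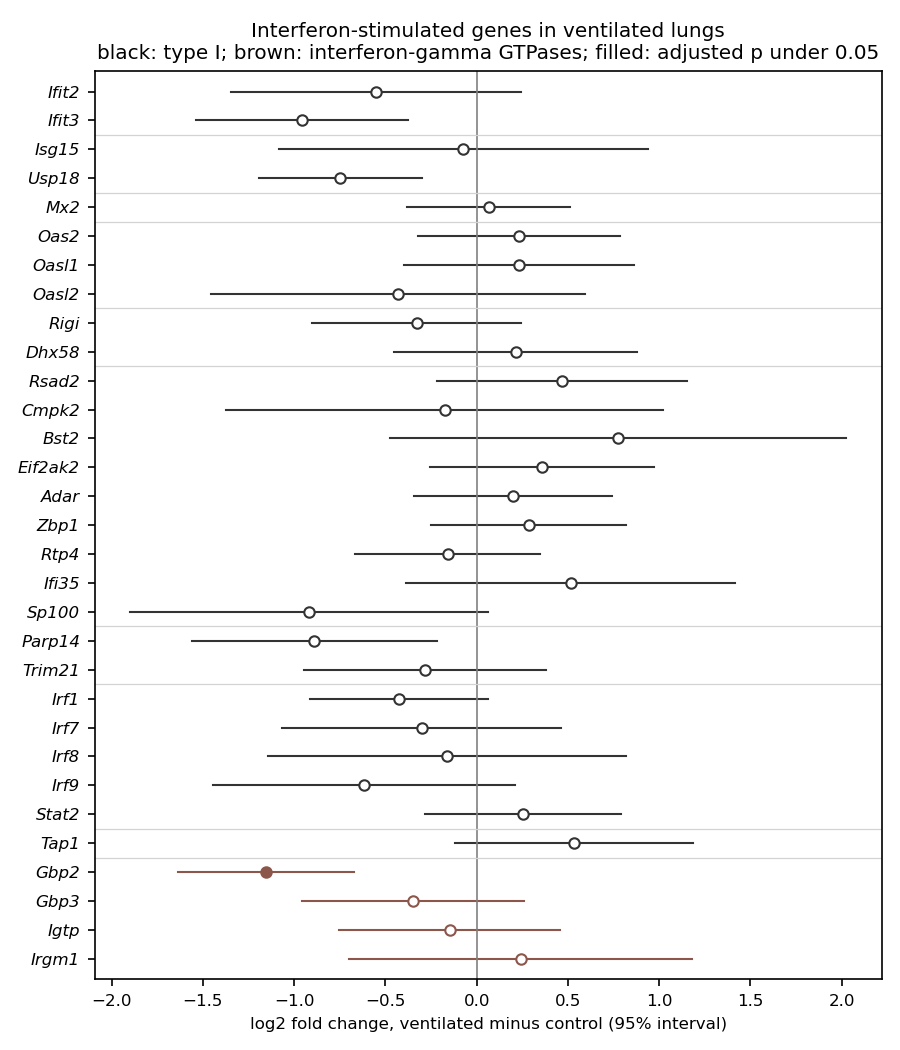
Log2 fold change (ventilated minus control) of the 31 measured interferon-stimulated genes on the x axis, with points for the estimate and lines for its 95% interval, n = 3 control and 5 ventilated lungs. Gbp2, the single filled point, is at −1.15; Ifit3, Usp18 and Parp14 are the other members whose interval lies below 0.

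Gbp2 encodes a guanylate-binding protein, one of the large GTPases that assemble on membranes around intracellular pathogens. Its normalized log2 level was 9.23, 9.68 and 9.25 in controls 1 to 3, and 8.51, 8.04, 8.32, 8.11 and 8.19 in ventilated lungs 1 to 5. The lowest control lay above the highest ventilated lung. The mean fell from 9.39 ± 0.26 (SD, n = 3) to 8.23 ± 0.19 (SD, n = 5), a 2.22-fold difference (log2 fold change −1.15 ± 0.22 SE, limma adjusted p = 0.0284). The direction was the same in every alternative run, at −1.37 to −0.97. The call was not as stable, since it was lost when any 1 array other than ventilated 1 was left out, at limma adjusted p of 0.0514 to 0.0821. Within the 4 brighter arrays the log2 fold change was −1.13 (limma adjusted p = 0.131) and within the 4 dimmer ones, which hold a single control, −1.37. Of the 15 other alternatives judged at an adjusted p under 0.05, 10 called Gbp2. The value rests on 1 of 3 Gbp2 probes, because the other 2 were detected on no array.

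The other GTPases of the interferon-gamma class did not pass the test. Gbp3, a second guanylate-binding protein, was at 7.03, 6.91 and 7.19 in controls and 6.69, 7.14, 7.10, 6.08 and 6.47 in ventilated lungs. Its groups overlapped, its log2 fold change was −0.35 ± 0.27 (SE), and its second probe gave −0.46. Igtp, an immunity-related GTPase that guards against vacuolar parasites, stood at −0.15 ± 0.27, and at −0.09 without control 2. Irgm1, which regulates the other immunity-related GTPases and autophagy, stood at 0.24 ± 0.42, and at −0.21 without control 2. Irgm1 in control 2, at 9.39, was the lowest of the 8 values, with 10.90 and 10.57 in the other controls and 9.46 to 11.12 in ventilated lungs. Neither of the 2 Iigp1 probes was detected on any array.

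The IFIT proteins bind viral RNA and block its translation. Ifit3, a member of this family, was at 9.67, 9.26 and 9.62 in controls and 8.45, 9.04, 8.90, 8.14 and 8.29 in ventilated lungs. All ventilated values were below all control values, with ventilated 4 lowest. The log2 fold change of Ifit3 was −0.96 ± 0.26 (SE), a 1.94-fold difference that missed the threshold (limma adjusted p = 0.101). Its other probes gave −0.64 and −0.63, so that all 3 had the same direction. The mouse genome holds a close copy, Ifit3b, for which no probe was named, and whether the probes tell the copies apart was not tested.

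Ifit2, another member of the family, was at 6.70, 6.56 and 6.57 in controls and 5.96, 6.68, 6.40, 4.93 and 6.33 in ventilated lungs. The groups overlapped and the log2 fold change of Ifit2 was −0.55 ± 0.36 (SE). Without ventilated 4 it was −0.27. The single Ifit1 probe was detected on no array.

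Isg15 is a ubiquitin-like protein that is attached to other proteins during the interferon response, and Usp18 removes it and also blocks the type I receptor. Usp18 was at 7.86, 7.86 and 7.99 in controls and 7.17, 7.05, 7.47, 7.04 and 7.06 in ventilated lungs. The controls lay within a narrow band above all ventilated values. Usp18 had a log2 fold change of −0.75 ± 0.20 (SE), a 1.68-fold difference (limma adjusted p = 0.0957), and its other probes gave −0.99 and −0.54. Across the 15 alternatives judged at an adjusted p under 0.05 that did not leave out 1 array each, its adjusted p in limma was 0.0218 to 0.9997, and 4 of these called it.

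Isg15 itself did not separate the groups. It was at 6.13, 4.58 and 6.25 in controls and 5.74, 5.95, 5.76, 4.42 and 6.02 in ventilated lungs, with control 2 and ventilated 4 low in their groups and not detected there. Isg15 had a log2 fold change of −0.07 ± 0.46 (SE), with a 95% interval from −1.08 to 0.94, and it was −0.64 without control 2 (limma adjusted p = 0.472). Trim25, a ubiquitin ligase that also attaches Isg15, was detected on 1 array and not measured.

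**Figure D2:**
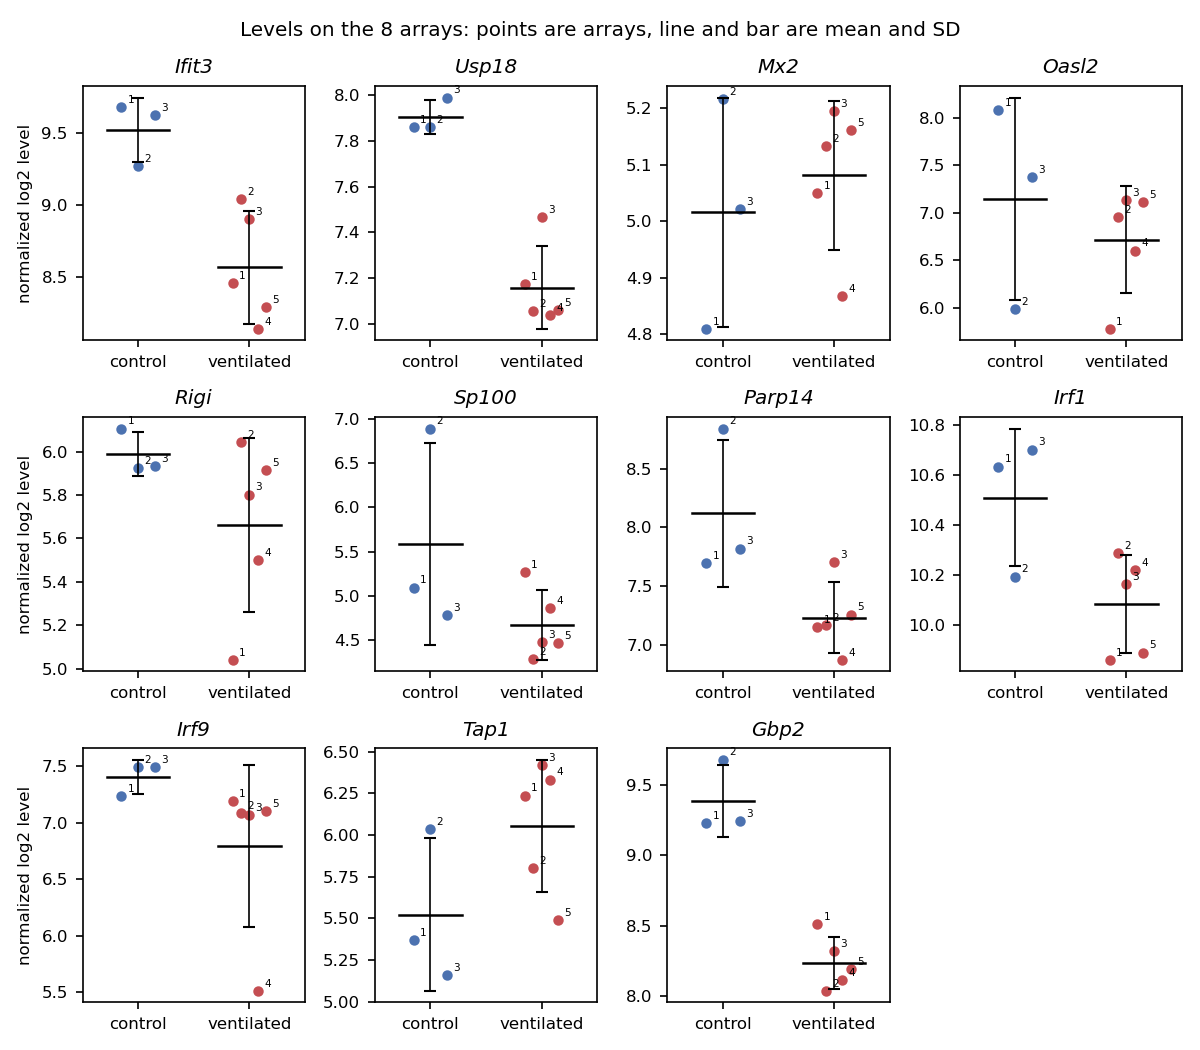
Normalized log2 level (y axis, a separate scale per gene) in 3 control and 5 ventilated lungs for the 11 members that passed the test, did not overlap between groups or had the smallest p of their role. Points are single arrays with their replicate number, and the line and bar are mean and SD; in Gbp2, Usp18, Ifit3 and Irf9 the ventilated points all lie below the control points.

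The Mx and OAS proteins are antiviral enzymes whose transcripts are usually among the most strongly induced by type I interferon. Mx2 was at 4.81, 5.22 and 5.02 in controls and 5.05, 5.13, 5.19, 4.87 and 5.16 in ventilated lungs, a log2 fold change of 0.07 ± 0.20 (SE) with a 95% interval from −0.38 to 0.51. Without control 2, which held the highest value, it was 0.18. Mx1, which many inbred mouse strains carry as a defective allele, was detected on 1 array and not measured.

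OAS enzymes make a short nucleotide chain that activates an RNase. Oasl2, an OAS-like protein, was at 8.09, 5.99 and 7.38 in controls and 5.78, 6.95, 7.14, 6.60 and 7.12 in ventilated lungs. These values overlapped widely, and the log2 fold change of Oasl2, −0.43 ± 0.46 (SE), became −1.03 without control 2 and 0.03 without control 1. Oas2 and Oasl1 both stood at 0.23, with SE of 0.25 and 0.29, and Oas2 at 0.46 without control 2. Oasl1 was the member nearest the detection mark, detected on 3 arrays. Oas3, just outside it, had a probe detected on 2 arrays, and Oas1a was detected on none.

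Rigi and Ifih1 sense viral RNA in the cytosol, and Dhx58 modulates them. Rigi, named Ddx58 in the array annotation, was at 6.11, 5.93 and 5.94 in controls and 5.04, 6.04, 5.80, 5.50 and 5.92 in ventilated lungs. Rigi had a log2 fold change of −0.33 ± 0.26 (SE), with overlapping groups and ventilated 1 lowest. Dhx58 stood at 0.21 ± 0.30, and at 0.63 without control 2, whose value of 6.48 was the highest of all 8 arrays. Ifih1 was detected on 1 array and not measured.

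Of the other effectors 9 were measured, and none passed the test. Rsad2, or viperin, which makes a chain-terminating nucleotide together with the kinase Cmpk2, was at 6.72, 7.38 and 7.89 in controls and 7.68, 7.58, 8.44, 7.77 and 7.51 in ventilated lungs. The log2 fold change of Rsad2 was 0.47 ± 0.31 (SE, limma adjusted p = 0.508). Cmpk2, the neighbouring gene, stood at −0.18 ± 0.54, with 4.49 on control 2 and 4.31 on ventilated 4 against 5.36 to 6.54 on the rest. Without control 2 Cmpk2 stood at −0.86 (limma adjusted p = 0.41) and Rsad2 at 0.50.

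Bst2, or tetherin, which holds budding viruses at the cell surface, had the highest log2 fold change of all members, 0.77 ± 0.56 (SE). It was at 7.26, 4.76 and 7.84 in controls and 7.36, 7.02, 7.67, 7.27 and 7.66 in ventilated lungs. Only control 2, where the probe was not detected, stood apart, and without it the log2 fold change of Bst2 was −0.16. The pattern of Ifi35 was alike, at 6.10, 4.28 and 6.23 in controls and 5.78 to 6.33 in ventilated lungs. Its log2 fold change was 0.51 ± 0.41 (SE) with all arrays and −0.12 without control 2.

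Sp100, a component of nuclear bodies, was at 5.09, 6.89 and 4.78 in controls and 5.27, 4.28, 4.48, 4.87 and 4.46 in ventilated lungs. It was detected on all 3 control arrays and on 1 of 5 ventilated arrays. Its log2 fold change of −0.92 ± 0.44 (SE, limma adjusted p = 0.346) was −0.29 without control 2, which held the highest value. Eif2ak2, the kinase that halts translation on double-stranded RNA, stood at 0.36 ± 0.28, and at 0.18 without control 2. Adar, an RNA-editing enzyme, stood at 0.20 ± 0.24, and at 0.40 without control 2. Other probes of Adar gave −0.52 and −0.25. Zbp1, a sensor of left-handed nucleic acids, stood at 0.28 ± 0.24 and Rtp4, a receptor transport protein, at −0.16 ± 0.23. Without control 2 these were 0.21 and 0.06. Xaf1 was detected on 1 array and not measured.

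Parp14, an ADP-ribosyltransferase, was at 7.70, 8.84 and 7.82 in controls and 7.15, 7.17, 7.70, 6.87 and 7.26 in ventilated lungs. The groups met at 7.70, the value of control 1 and ventilated 3, and control 2 was highest. The log2 fold change of Parp14 was −0.89 ± 0.30 (SE, limma adjusted p = 0.176), and −0.53 without control 2. Trim21, an antibody receptor in the cytosol and ubiquitin ligase, stood at −0.28 ± 0.30 and at −0.64 without control 2. Parp9 was detected on no array.

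Irf9 and Stat2 are subunits of the factor that type I interferon activates, and Irf1, Irf7 and Irf8 are further transcription factors of the response. Irf9 was at 7.23, 7.49 and 7.49 in controls and 7.19, 7.08, 7.06, 5.51 and 7.10 in ventilated lungs. Its groups did not overlap, but 4 ventilated values lay just below the controls and ventilated 4 far below them. The log2 fold change of Irf9 was −0.62 ± 0.37 (SE, limma adjusted p = 0.465) and −0.30 without ventilated 4, and a second probe gave 0.38.

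Irf1, which both interferons induce, was at 10.63, 10.19 and 10.70 in controls and 9.86, 10.29, 10.16, 10.22 and 9.89 in ventilated lungs. The log2 fold change of Irf1 was −0.43 ± 0.22 (SE, limma adjusted p = 0.388). Of its 5 kept probes 4 were below 0 and 1 gave 0.06. Irf7, which amplifies type I interferon, stood at −0.30 ± 0.35, and Stat2 at 0.25 ± 0.24. Without control 2 these were −0.10 and 0.12. Irf8, a factor of monocytes, dendritic cells and B cells, stood at −0.16 ± 0.44 with all arrays and −0.80 without control 2, where it had the lowest value, 4.40. Tap1, which pumps peptides for antigen presentation, was at 5.37, 6.04 and 5.16 in controls and 6.24, 5.80, 6.42, 6.33 and 5.49 in ventilated lungs. Its log2 fold change was 0.53 ± 0.29 (SE, limma adjusted p = 0.414), with overlapping groups, and 0.83 without control 2.

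**Figure D3:**
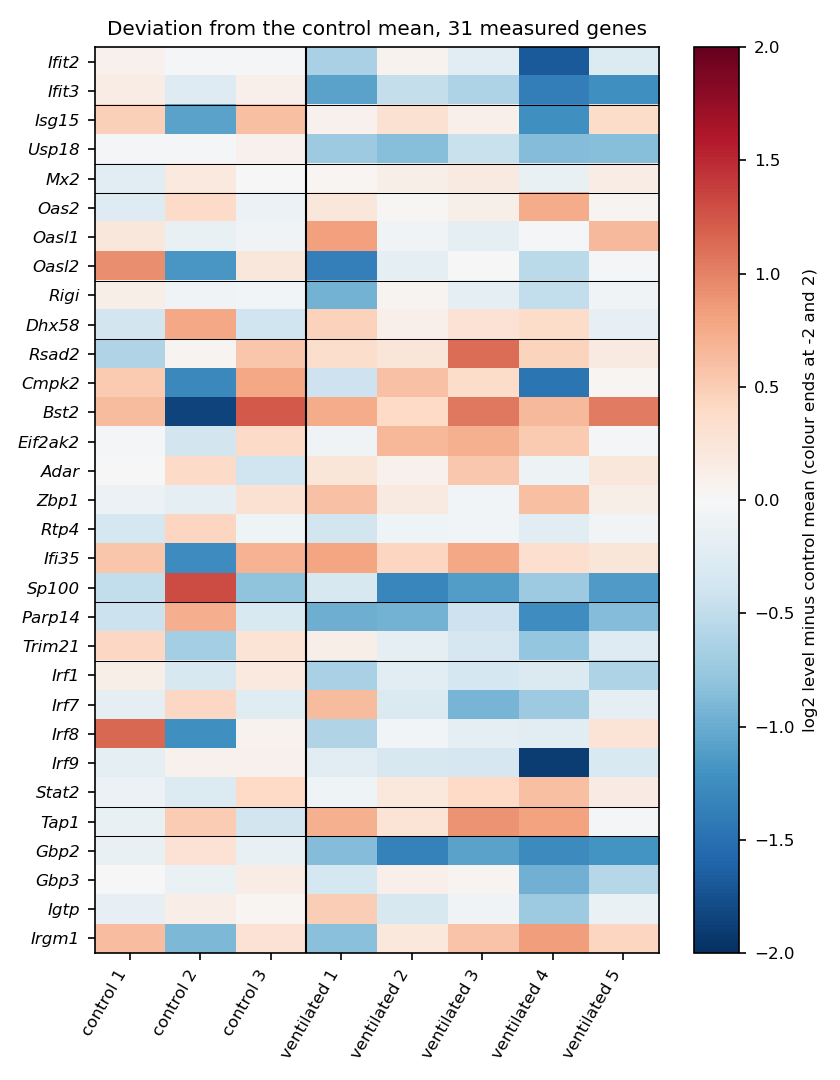
Each row is a measured member and each column a lung; colour is the log2 level minus the mean of the 3 controls, blue below and red above. Gbp2, Usp18, Ifit3 and Irf9 are blue in all 5 ventilated lungs, and ventilated 4 holds the lowest of the 8 values for 10 members.

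The ventilated lungs differed among themselves. Ventilated 4 had the lowest of the 8 values for 10 of the 31 members, among them Ifit2, Ifit3, Usp18 and Irf9. The median deviation of the 31 members from the control mean was −0.29 there, against −0.08, 0.05, −0.05 and −0.03 in ventilated lungs 1, 2, 3 and 5. Over all features it was −0.04 in ventilated 4. Ventilated 4 was also the dimmest ventilated array, at a mean intensity of 87.4, and the part of brightness in this was not tested. For 4 members, Oas2, Zbp1, Stat2 and Irgm1, ventilated 4 held the highest of the 8 values. Control 2, the dimmest array of all, likewise lay below all 7 other arrays for 7 members and above them for 7.

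Removing control 2 left 0 members past the threshold in either direction, by limma. It turned the sign of 4 members, Bst2, Ifi35, Irgm1 and Rtp4. Gbp2 stood at −1.01 without it, Ifit3 at −1.09, Usp18 at −0.78 and Irf9 at −0.58. Of all 31 members, 16 kept their direction under every alternative that measured them, 11 lower and 5 higher. Detection on all 8 arrays, one of these, measured 16 members.

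**Figure D4:**
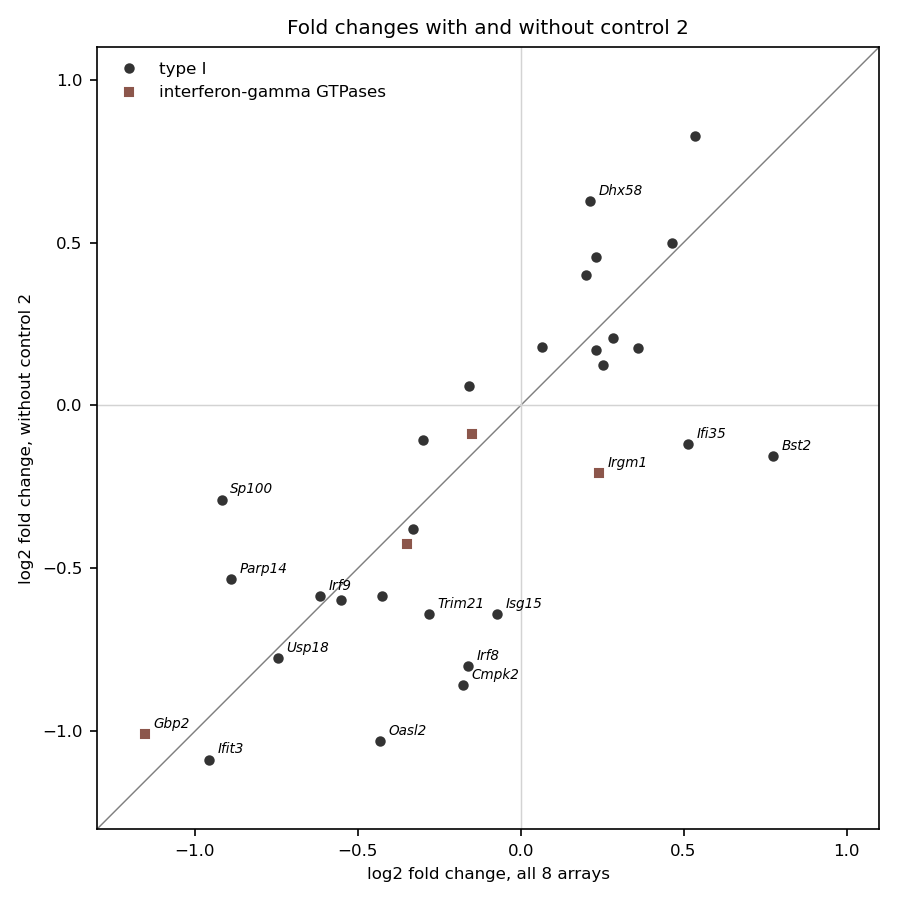
Log2 fold change (ventilated minus control) of the 31 measured members with all 8 arrays (x axis) and without control 2 (y axis), with the line of equality. Gbp2, Ifit3, Usp18 and Irf9 stay near the line, whereas Bst2 moves from 0.77 to −0.16 and Ifi35 from 0.51 to −0.12.

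The rest of the interferon pathway was read from lists of 89 genes that are not members, of which 52 were measured. Of 10 listed interferon genes, 8 had a probe and none was measured: Ifng and Ifne were each detected on 1 array and the others, Ifnb1 and the interferon-alpha genes among them, on none. Among 8 measured receptors and kinases 1 fell and 0 rose. It was Tyk2, the kinase of the type I receptor, at 7.97, 7.66 and 7.44 in controls and 6.10, 6.22, 6.25, 6.20 and 6.55 in ventilated lungs. All ventilated values of Tyk2 were below all controls, a 2.68-fold difference (log2 fold change −1.42 ± 0.22 SE, limma adjusted p = 0.00922).

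Tyk2 kept its call whichever 1 array was left out, at limma adjusted p of 0.0192 to 0.0418, and was called in 10 of the 15 other alternatives judged at an adjusted p under 0.05. Its other probes, detected on 4 arrays and 1 array, gave −0.62 and −0.41. Ifngr1, the ligand-binding chain of the interferon-gamma receptor, was at 8.28, 7.45 and 8.25 in controls and 8.54 to 8.91 in ventilated lungs, a log2 fold change of 0.68 ± 0.24 (SE) that did not pass (limma adjusted p = 0.199). The kinases Jak1 and Jak2 stood at −0.01 and 0.16. Of 10 measured genes that induce type I interferon none passed. The smallest p was that of Myd88, a Toll-like receptor adaptor, at 0.82 ± 0.23 (limma adjusted p = 0.11). Mavs, the adaptor of Rigi, stood at −1.41 ± 0.40 (limma adjusted p = 0.11) with all ventilated values below all controls. For Myd88 and Ifngr1 all ventilated values lay above all controls. Of all features, 6.45% lay lower in this way and 6.71% higher. Ifngr1 and Mavs were chosen after their values were seen.

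Among 6 measured negative regulators 1 rose and 0 fell. It was Socs3, an inhibitor of cytokine receptors that interleukin-6 type cytokines also induce, which was at 7.82, 7.56 and 7.88 in controls and 9.54, 9.31, 9.61, 9.67 and 9.51 in ventilated lungs. These groups lay far apart (log2 fold change 1.77 ± 0.20 SE, limma adjusted p = 0.00301). Socs1, the inhibitor of this class most tied to interferon, was not detected on enough arrays to be measured. Nlrx1, at 1.11 ± 0.33 (SE, limma adjusted p = 0.129), and Irf2, at −0.89 ± 0.30 (SE, limma adjusted p = 0.169), did not pass. All ventilated values lay above all controls for Nlrx1 and below them for Irf2, beside 6.71% and 6.45% of all features. Both were chosen after their values were seen. Of 15 other type I targets and 13 other interferon-gamma targets that were measured none passed, with median log2 fold changes of −0.21 and −0.32. The smallest p in these lists were those of Ifi27, at −0.60 ± 0.24 (limma adjusted p = 0.26), and Cxcl9, a chemokine for T cells, at −0.59 ± 0.24 (limma adjusted p = 0.258). Cxcl9 was near the detection mark, detected on 2 of 3 control arrays and 1 of 5 ventilated arrays. At an unadjusted p under 0.05, 0 of these 28 genes were higher and 3 lower, beside 8.69% and 7.55% of all features.

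**Figure D5:**
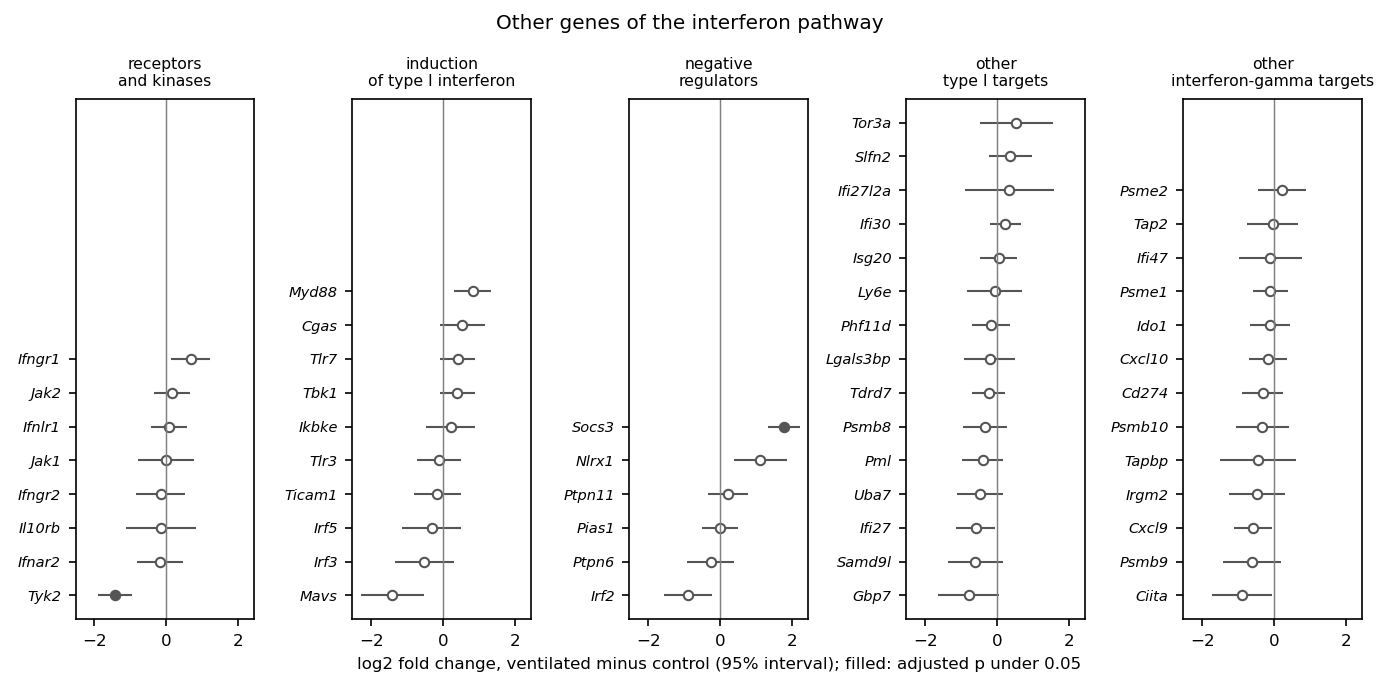
Log2 fold change (ventilated minus control) with 95% interval of the 52 measured pathway genes that are not members, in 5 lists. The filled points, past an adjusted p of 0.05, are Tyk2 at −1.42 and Socs3 at 1.77.

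In whole lung, fewer cells of a type and less RNA per cell cannot be told apart, and transcripts of some cell type markers differed between the groups. The tissue label was borne out by Sftpc, Sftpb and Scgb1a1, markers of alveolar type 2 and club cells, detected on all 8 arrays. The 3 measured skeletal muscle markers were all highest on control 1. Acta1 was at 11.60 there, against 4.31 to 5.69 on the other arrays, Tnnt3 at 7.53 and Ckm at 7.67. Of 6 measured neutrophil markers 4 rose, and the mean level of the list was 5.58 to 6.04 in controls and 7.996 to 9.19 in ventilated lungs. Of 4 measured alveolar macrophage markers 0 passed, with a median of −0.46 and list levels of 7.87 to 8.31 in controls and 7.51 to 7.99 in ventilated lungs. Of 3 measured endothelial markers 0 passed, with Pecam1 at −0.03, Tek at −0.67 and Cdh5 at 0.41. None of 5 monocyte markers was measured, and of 6 dendritic cell markers Zbtb46 alone was. Of 3 measured plasmacytoid dendritic cell markers 0 passed. Of 4 measured T cell markers 1 rose, Cd3d, at 1.58. Cd3e at 0.79 and Cd8b1 at 0.31 did not pass, and Cd3g stood the other way at −0.23. T cell list levels were 4.70 to 5.40 in controls and 5.42 to 6.35 in ventilated lungs. The part of these cells in the levels of Gbp2, Ifit3 and Usp18 was not tested.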

How the data were processed

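Total RNA from 3 control lungs and 5 ventilated lungs was isolated with Trizol and turned into biotinylated cRNA for Illumina arrays, per the labels' protocols. Each probe has a raw intensity and a detection p-value in the deposited scanner table, per the file headers. A value table, also deposited, holds the same intensities times 1 factor per array. Scale and direction were settled by this match, and 1 value was off its factor by over 0.001 of it. That table is not centred, and its array medians were 31.7, 116 and 34.3 in controls 1 to 3 and 70.2, 42.5, 61.5, 82.5 and 30.9 in ventilated lungs 1 to 5.

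In R 4.3.3 with limma 3.58.1, neqc corrected the background (negative controls inferred from detection p-values, offset 16), applied quantiles and took log2. Of 25697 probes, 23978 carried 1 gene symbol, 0 several and 1719 none. Probes that 3 or more of the 8 arrays detected (p under 0.05) were kept, 13374 in all. A gene was represented by its kept probe of highest mean, giving 10200 features. Groups were compared with lmFit and eBayes, two-sided, with Benjamini-Hochberg adjustment over all features. The fit was tested on simulated data. Intervals are 95% and not adjusted. Figures used Python 3.11.15 and matplotlib 3.10.9.

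The members and lists were chosen with earlier results of these data known. Members given on all arrays are those past the threshold, those whose groups did not overlap and the smallest p of each role. Other members described on single arrays were chosen after their values were seen. Alternatives covered background, normalization, deposited values, filter, probe choice, variance model, array weights, threshold, replicate block, array brightness and each array left out. The main fit did not pair lungs by the replicate numbers of the labels. Deviations from the group means correlated at −0.34, −0.36 and 0.36 for numbers 1 to 3, which are too few to decide on pairing. With the replicate block, Gbp2 stood at −1.10 (limma adjusted p = 0.484). Promoters came from RefSeq; the files name no build for the probes.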

Additional observations from a re-analysis of the deposited data

Results flagged for a closer look

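Among the 5 ventilated lungs, 1 value stood far from the other 4 by Dixon's test in 4 of 35 sets of values examined, where chance flags about 1 in 20. They were Irf9 in ventilated 4, at 5.51, Isg15 in ventilated 4, at 4.42, Oas2 in ventilated 4, at 5.58, and Rsad2 in ventilated 3, at 8.44. Ventilated 4 was low for Irf9 and Isg15 and high for Oas2, and was the dimmest ventilated array. Without it the log2 fold changes were −0.30 for Irf9, 0.24 for Isg15 and 0.11 for Oas2. Without ventilated 3 that of Rsad2 was 0.30.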

How the results depend on the processing

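The direction of Gbp2, Ifit3, Usp18, Irf9, Irf1, Parp14, Sp100, Rigi and Tap1 was the same under every alternative that measured them. Of these, Sp100 was not measured with detection on all 8 arrays. Among the named members only Mx2 and Oasl2 turned, to −0.056 and 0.37 in the 4 dimmer arrays and to −0.0325 and 0.0311 without control 1, with 0.18 and −1.03 at the other end of the range with 1 array left out. No alternative called a member higher. The number called lower, 1 in the main setting, was 0 with a common median, the deposited values, an adjusted p under 0.01, the replicate block, the 4 brighter arrays or the 4 dimmer arrays, 2 with normexp at offset 50, without a detection filter, at an adjusted p under 0.1 or with brightness as a covariate, and 3 with array weights. Features called, 204 in the main setting, numbered 0 with a common median, 314 with cyclic loess, 6 with the deposited values, 838 with array weights, 53 and 412 at adjusted p under 0.01 and 0.1, 2 with the replicate block, 569 and 315 with brightness as a covariate and a block, and 22 and 4 in the brighter and dimmer arrays. The dimmer arrays hold a single control, assumed to vary like the others. Leaving out 1 array gave 66 to 158 features called and 0 to 1 members called lower. The type I median, −0.16, was −0.013 with cyclic loess, −0.38 with detection on all 8 arrays, 0.11 with the replicate block, 0.0557 with brightness as a block, 0.000701 in the dimmer arrays and −0.18 to 0.11 with 1 array left out. The common median moved the median of all features from 0.01 to −0.11. The causes were not tested. Depth here is signal over background: 15 of the 31 members missed detection on at least 1 array.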
